A study of Drosophila melanogaster with 3 samples.

Results

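Cytochrome P450 enzymes are heme-containing monooxygenases that insert oxygen into lipophilic substrates. In insects they make and break down ecdysteroids, build cuticular hydrocarbons and detoxify plant compounds and insecticides. Binding near their genes was examined for Eip75B (E75), an ecdysone-inducible nuclear receptor whose ligand pocket itself holds heme. The members were all protein-coding genes with a symbol made of Cyp, a number, letters and a number, with a suffix allowed for the duplicated pair Cyp12d1-p and Cyp12d1-d. They numbered 83 of the 13945 protein-coding genes on the 6 chromosome arms.

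Chromatin came from whole prepupae of the Drosophila melanogaster strain Eip75B-MiMIC-GFP, in which an eGFP exon lies in an intron of Eip75B, so that the tagged protein could be precipitated with an antibody against GFP (ChIP-seq). Males and females were pooled, and the labels give the age in hours as unknown. There was 1 group of 3 biological replicates, with no second condition, and no mock or untagged library was analysed here. Signal from whole animals cannot be assigned to a tissue. The gene of the tagged protein held 38 summits of the final list (the optimal peaks) and 40, 35 and 36 among the strongest regions of replicates 1, 2 and 3.

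P450 genes fall into 4 clans, which group related families. The CYP3 clan, with many enzymes of detoxification, held 38 members in families Cyp6, Cyp9, Cyp28, Cyp308, Cyp309, Cyp310 and Cyp317. The CYP4 clan, which includes the enzyme of hydrocarbon synthesis, held 32 in families Cyp4, Cyp311, Cyp312, Cyp313, Cyp316 and Cyp318. The mitochondrial clan held 9 (Cyp12, Cyp49 and Cyp301) and the CYP2 clan held 4 (Cyp18, Cyp303, Cyp304 and Cyp305). Of the 20 families, 13 had a single member. The 6 P450 genes of ecdysone synthesis that are named by phenotype lie outside the symbol rule and are described separately.

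Few P450 genes had an Eip75B peak near a start. In the list of 7803 optimal peaks, 6 of 83 genes (7.23%, 95% exact Clopper-Pearson interval 2.70% to 15.1%) had a summit no more than 1 kb from an annotated transcription start, against 23.6% of all protein-coding genes. The 6 were Cyp6u1, Cyp4d20, Cyp310a1, Cyp6v1, Cyp6a2 and Cyp9f2. No optimal summit lay inside a P450 gene, whereas 15.2% of all protein-coding genes held a summit in the gene body. The exact upper 95% limit for 0 of 83 is 4.35%, and a floor of 3 genes is 3.61%. Intervals and limits cover counting error only, and neighbouring members are not independent.

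The low share recurred in each replicate. In the top list of a replicate, which is its 7803 highest-signal regions, the members with a start within 1 kb of a summit numbered 6, 6 and 7 in replicates 1, 2 and 3. This is 7.63% ± 0.696 (SD, n = 3) of the members, against 24.9% ± 0.828 (SD, n = 3) of all protein-coding genes. The share was below that of all genes in 3 of 3 replicates, with 7.23% against 24.9%, 7.23% against 25.7% and 8.43% against 24.1%. All 6 genes of the optimal list were bound in all 3 top lists. The optimal list was derived from these same replicates, so presence in their top lists is no independent support. The additional gene in replicate 3 was Cyp4e2, whose region ranked 7722 in that list, close to its end. Its summit also lay inside the gene and was the single body summit of a member in any top list. Body summits were present in 0, 0 and 1 of the members, against 15.0%, 15.7% and 15.6% of all genes, in replicates 1, 2 and 3.

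**Figure D1:**
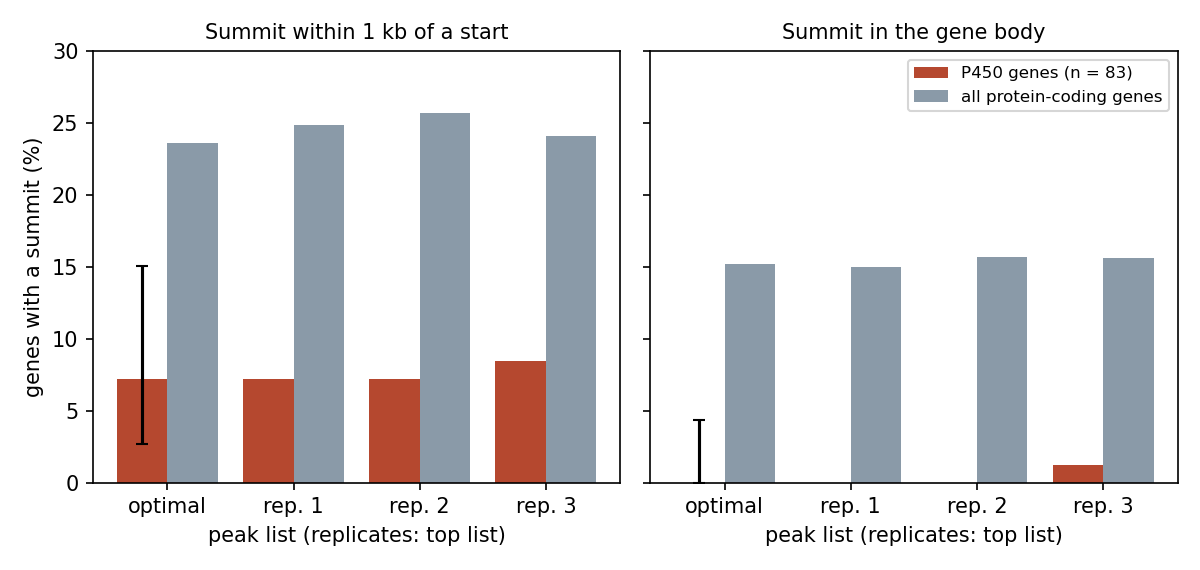
Bars give the percentage of P450 genes and of all protein-coding genes with a summit within 1 kb of a start (left) or in the gene body (right), in the optimal list and in the top list of each replicate. Whiskers on the optimal bars of the P450 genes are 95% exact intervals. P450 genes lie at 7.23% to 8.43% on the left, and all genes at 23.6% to 25.7%.

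Length and number of starts gave part of the setting for these counts. P450 genes are compact, from 1621 to 9543 bp with a median of 2099 bp, close to the median of 2166 bp over all protein-coding genes, whose lengths reach 1965857 bp. Several annotated starts were present in 13 members (15.7%), against 26.5% of all genes. Among the 4674 genes with a single start and a length within the P450 range, 19.0% had a summit within 1 kb of the start and 6.55% had one in the gene body. Of the 108 genes outside the symbol rule that directly flank a member or a run of members, 16.7% had a promoter summit and 16.7% a body summit. These flanking genes can include P450 genes named by phenotype. No test of these differences was made.

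The 101 reference bases (Release 6, plus strand) centred on the strongest optimal summit are shown for 4 of the bound genes. The sonicated fragments were longer than these windows, so the windows show the summit position and the bound bases are not resolved. For Cyp9f2, the summits of replicates 1 and 3 (12406507 and 12406341) lay outside the window, and that of replicate 2 (12406379) lay inside. The capital letter marks the base of the summit.
Cyp310a1, chr2L:18653434-18653534: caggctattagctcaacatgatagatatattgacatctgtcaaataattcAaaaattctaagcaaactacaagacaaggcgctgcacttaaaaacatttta
Cyp4d20, chr3L:2479393-2479493: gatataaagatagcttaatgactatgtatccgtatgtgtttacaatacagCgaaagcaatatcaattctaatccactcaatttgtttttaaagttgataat
Cyp6v1, chrX:20656764-20656864: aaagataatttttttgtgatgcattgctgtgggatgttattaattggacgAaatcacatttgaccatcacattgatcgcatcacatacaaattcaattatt
Cyp9f2, chr3R:12406351-12406451: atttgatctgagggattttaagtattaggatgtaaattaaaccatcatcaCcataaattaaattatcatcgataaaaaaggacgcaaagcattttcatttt
The GC content of these windows was 31.7%, 27.7%, 30.7% and 26.7% in the order shown, against a median of 32.7% (quartiles 27.7% and 40.6%) over all optimal peaks.

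None of the 7 motifs searched was found within 50 bp of any of the 7 summits at P450 genes, on either strand. The nuclear receptor core AGGTCA was present in 2.49% of all optimal windows of the same width and GGGTCA in 1.91%. The forms of these cores with the AT-rich extension known for E75 and Hr3, counted within the cores as well, were present in 0.167% and 0.218%. The antioxidant response element TGACNNNGC was present in 2.09%, GAGAG in 12.3% and TATCGATA in 0.846%. With shares this low, 0 of 7 windows is no contrast to the other peaks. The motifs were also absent from these 7 windows at a width of 100 bp on either side. At that width GAGAG was present in 26.2% of all optimal windows, and each other motif in 4.59% or less. With only 7 windows, the absence of GAGAG there was not tested.

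The strongest P450 peak was that of Cyp6u1 (FBgn0033121; 2R, 6971996 to 6975026, minus strand, dm6). Its summit at 6975110 lay 84 bp upstream of the nearer of its 2 annotated starts and had an authors' signal of 657, rank 355 of the optimal list. In replicates 1, 2 and 3 the signal was 208, 244 and 201, at ranks 444, 261 and 423 of the replicate's whole list. The summit lay in the 5' UTR of Ufsp1, an overlapping gene on the same strand that encodes a protease acting on the ubiquitin-like modifier UFM1, and only 23 bp from a Ufsp1 start. The peak therefore counted for both genes and was nearer to Ufsp1.

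Cyp4d20 (FBgn0035344; 3L, 2476259 to 2478448, minus strand), the single bound member of the CYP4 clan, had the next strongest peak. The summit at 2479443 had a signal of 529 and rank 586, and signals of 183, 194 and 146 in replicates 1, 2 and 3. It lay 995 bp upstream of the start, only just within the limit of 1 kb, in an intron of Svil, the gene of the actin-binding protein supervillin, inside which Cyp4d20 is nested. The nearest start of another gene, a Svil start, was 3816 bp away.

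Cyp310a1 (FBgn0032693; 2L, 18651058 to 18653010, minus strand) is the sole member of its family and was bound 474 bp upstream of its start. The summit at 18653484 had a signal of 271 and rank 1863, with signals of 81.7, 89.5 and 103 in replicates 1, 2 and 3. It lay in an intron of the host gene MESR3, and the nearest start of another gene was 16559 bp away. Cyp6v1 (FBgn0031126; X, 20657122 to 20661425, plus strand) had an intergenic summit at 20656814, upstream of its nearer start. The signal was 248 at rank 2150, and 95.3, 62.4 and 89.9 in the replicates. Cyp6v1 was the only bound P450 gene whose peak lay outside other genes and more than 1 kb from the start of any other gene.

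Cyp6a2 (FBgn0000473; 2R, 6779749 to 6781491, minus strand) encodes an enzyme that metabolises insecticides and is induced by xenobiotics. Its summit at 6781926, 435 bp upstream of the start, had a signal of 181 and rank 3407, and signals of 52.3, 47.8 and 68.6 in replicates 1, 2 and 3. It lay in an intron of Epac, the gene of a cAMP-activated exchange factor, whose nearest start was 5016 bp away. Cyp9f2 (FBgn0038037; 3R, 12403340 to 12406028, minus strand) had a pair of summits upstream. The stronger, at 12406401, had a signal of 154 and rank 4274 and lay 373 bp from the Cyp9f2 start but 131 bp from that of CG5167. The weaker, at 12406601, had a signal of 95.1 and rank 7575, near the end of the optimal list, and lay in the 5' UTR of CG5167. The strongest regions of the replicates there had signals of 41.7, 75.2 and 48.8.

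The summits at the 6 bound genes all lay upstream of the start of the P450 gene, in the optimal list and in the strongest region of every replicate. No optimal summit lay inside a P450 gene, so an upstream position was almost fixed and is no separate result. The upstream share over all promoter summits is not given here. The positions recurred closely, at peaks that were chosen from these same 3 replicates. The upstream distance was 92.7 ± 22.0 bp (SD, n = 3) for Cyp6u1, 292 ± 22.1 bp (SD, n = 3) for Cyp6v1 and 422 ± 25.7 bp (SD, n = 3) for Cyp6a2. It was 481 ± 22.2 bp (SD, n = 3) for Cyp310a1 and 972 ± 18.6 bp (SD, n = 3) for Cyp4d20. Cyp9f2, with its pair of summits, had the widest spread, 381 ± 87.0 bp (SD, n = 3).

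**Figure D2:**
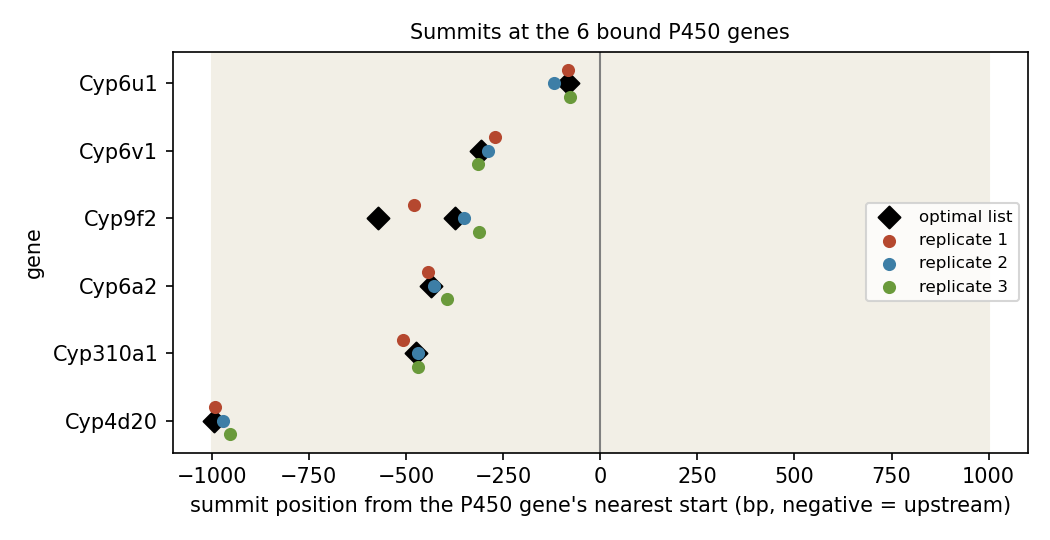
Position of each optimal summit (diamonds) and of the strongest region's summit in each replicate (circles, offset vertically) relative to the nearest start of the bound P450 gene, in bp along its direction of transcription. The shaded band is the window of 1 kb on either side. All points lie on the upstream side, from 78 bp in replicate 3 for Cyp6u1 to 995 bp for Cyp4d20.

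Most of the bound members lay inside or beside another gene. Counting only genes whose own start was the nearest to the summit left 4 of the 83 members, against 18.4% of all protein-coding genes (2568 of 13945), and Cyp6u1 and Cyp9f2 dropped out. The start lay within the span of another protein-coding gene in 18 of the 83 members. Of these 18, 4 were bound (Cyp310a1 in MESR3, Cyp6a2 in Epac, Cyp6u1 overlapping Ufsp1 and Cyp4d20 in Svil), where 23.6% of all protein-coding genes were. Nested members without a promoter peak included Cyp4ac1, Cyp4ac2 and Cyp4ac3 in tkv and Cyp4p1, Cyp4p2 and Cyp4p3 in hig. Of the 45 members within 10 kb of another member, 1 was bound, Cyp9f2, and of the 38 farther away 5 were bound. These splits were chosen after the values were seen and were not tested. Shares for nested or clustered genes over all protein-coding genes are not given here.

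By clan, 5 of 38 CYP3 genes (13.2%, 95% exact interval 4.41% to 28.1%) and 1 of 32 CYP4 genes (3.12%, 0.0791% to 16.2%) had a promoter summit. None of 9 mitochondrial genes (limit of 3 genes, 33.3%) and none of 4 CYP2 genes had one. In the replicates' top lists the CYP3 count was 5 in each, and the CYP4 count was 1, 1 and 2. The CYP3 interval includes the share of 23.6% over all protein-coding genes, and the CYP4 interval lies below it. Neighbouring genes of a clan are not independent, so the intervals are no test of a difference from that share. The intervals of the clans overlap, and a difference between clans was not detectable with so few bound genes.

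Among families, Cyp6 had 3 bound of 23, Cyp9 had 1 of 6, Cyp310 had 1 of 1 and Cyp4 had 1 of 22, where 23.6% of all genes were bound. The other 16 families had none. The largest of these were Cyp12 with 7 members, Cyp313 with 6 and Cyp28 with 4. The Cyp6a subfamily genes on 2R other than Cyp6a2 had no promoter peak. Within Cyp12, the genes Cyp12d1-p and Cyp12d1-d are 99.1% identical over their aligned bases. The sources used here do not say where reads matching both genes were assigned, so the lack of a peak at either is uncertain.

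P450 starts were also farther from the nearest optimal summit than other starts. The median distance was 15072 bp (quartiles 5906 and 22536 bp) for the 83 members, against 6498 bp (1240 and 16109 bp) over all protein-coding genes. It was 7350 bp for the genes with a single start and a length in the P450 range and 9602 bp for the flanking genes outside the symbol rule. The nearest summit was more than 10 kb away for 53 members (63.9%), against 38.5% of all genes and 54 of the 108 flanking genes. Clan medians were 16344 bp for CYP3, 16756 bp for CYP4, 12769 bp for the mitochondrial clan and 5250 bp for the 4 CYP2 genes.

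**Figure D3:**
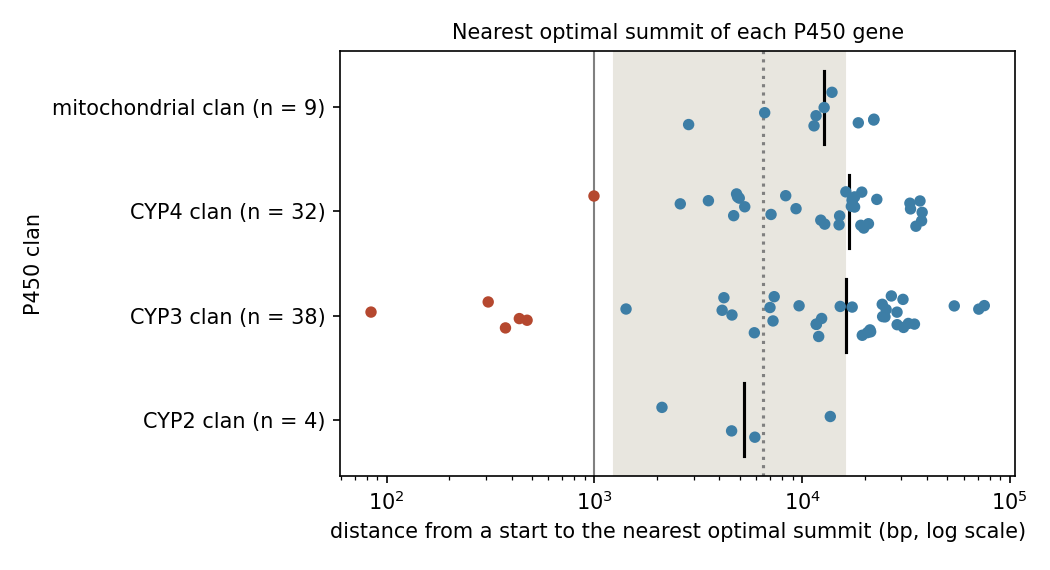
Distance in bp, on a log scale, from a start of each P450 gene to the nearest optimal summit, by clan, with bound genes in red and clan medians as black bars. The grey line marks 1 kb, the band the quartiles over all protein-coding genes (1240 to 16109 bp) and the dotted line their median of 6498 bp. Between 995 bp at Cyp4d20 and 1420 bp at Cyp9c1 there is no member.

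The members nearest to the limit of 1 kb were few. Just inside were Cyp4d20 at 995 bp, Cyp310a1 at 474 bp and Cyp6a2 at 435 bp. Just outside were Cyp9c1 at 1420 bp, Cyp304a1 at 2115 bp and Cyp4ac1 at 2591 bp.

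Among 5 further members taken as examples for their known roles, none had an optimal promoter peak. Cyp18a1 (X, 18688538 to 18693042), whose enzyme hydroxylates and so inactivates ecdysone, had its nearest optimal summit 13671 bp away. A weak region near its start stood in the whole lists of replicates 1 and 2, at ranks 23184 and 12390 of 30000. These summits lay inside the gene, 32 and 118 bp downstream of the nearest start. Replicate 3 had no region near a start, and its weak summit inside the gene lay elsewhere, 1625 bp downstream. Cyp6t3, needed for ecdysone synthesis, had no region within 1 kb in any replicate's whole list, and its nearest optimal summit was 12020 bp away. The insecticide resistance gene Cyp6g1 (7005 bp), the hydrocarbon synthesis gene Cyp4g1 (20869 bp) and the cuticle gene Cyp301a1 (22124 bp) likewise had none in any whole list, where the distances are to the nearest optimal summit.

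In the whole lists of 30000 regions, which hold background as well as peaks, the members with a start within 1 kb of a summit numbered 24, 24 and 16 in replicates 1, 2 and 3. This is 28.9%, 28.9% and 19.3% of the members, against 45.5%, 46.0% and 44.7% of all protein-coding genes. A region was present in all 3 whole lists for 13 members (15.7%), against 35.3% of all genes, and in none of them for 52 members. The share of all genes with a region in none of these lists is not given here. In the gene body, 12, 8 and 13 members held a summit of the whole lists (14.5%, 9.64% and 15.7%), against 29.2%, 29.3% and 29.3% of all genes.

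The 6 bound members, whose peaks were chosen from these same lists, ranked above the other 7 of these 13 in every replicate. The weakest rank of the 6 bound genes in any replicate was 5775, for Cyp9f2 in replicate 1. Of the 7 others, Cyp4e2 came next, at ranks 17511, 10953 and 7722 in replicates 1, 2 and 3, with signals of 14.5, 26.6 and 32.8. Cyp6t1 followed with ranks 11490, 9682 and 15490, and its summits lay 216 ± 26.6 bp (SD, n = 3) upstream of the start. Cyp9c1 had ranks 10059, 14913 and 13025, with summits 3, 64 and 84 bp downstream of its start. Cyp303a1, which is required for the development of sensory bristles, had ranks 14559, 13893 and 19647. Cyp49a1, of the mitochondrial clan, had ranks 15568, 18791 and 22826. In Cyp304a1 and Cyp4s3 the regions were weaker still, with mean ranks of 19724 and 25553, and their positions differed by 797 and 569 bp between replicates.

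**Figure D4:**
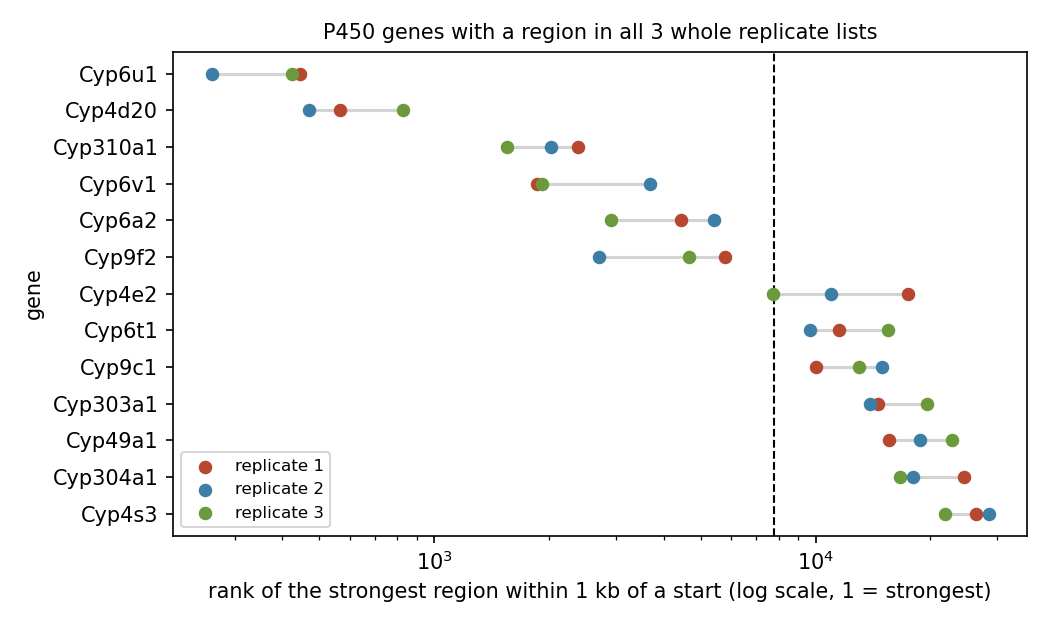
Rank, on a log scale, of the strongest region within 1 kb of a start in the whole list of each replicate (1 is the strongest), for the 13 P450 genes with a region in all 3 lists. The dashed line marks rank 7803, the length of the optimal list. The 6 bound genes lie at rank 5775 or better in every replicate, and of the other 7 only Cyp4e2 in replicate 3 lies inside the line.

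Of the 6 P450 genes of ecdysone synthesis, phtm, dib, sad, shd, spo and spok, 0 had an optimal promoter peak, against 23.6% of all protein-coding genes. Shade (shd), which converts ecdysone to the active hormone in peripheral tissues, came nearest, with an optimal summit 1250 bp from its start and a promoter summit in the top lists of 2 replicates. Its signals were 33.1, 26.3 and 33.0 in replicates 1, 2 and 3, where the top lists end at 32.0, 36.1 and 32.5. The regions in the top lists of replicates 1 and 3 thus lay close to the ends of those lists.

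Among 6 genes of electron supply, 3 were bound, where 23.6% of all genes were. Cpr, the gene of the NADPH-dependent reductase that donates electrons to microsomal P450 enzymes, had a summit 103 bp from its start with a signal of 104. Cyt-b5, an auxiliary electron donor, had a signal of 213 (rank 2715) at 153 bp, and the ferredoxin gene Fdx1 had 125 (rank 5491) at 1 bp. In replicates 1, 2 and 3 the signals were 46.1, 39.9 and 53.7 for Cpr and 123, 43.3 and 52.9 for Cyt-b5. Those for Fdx1 were 37.9, 53.4 and 48.4. Cyt-b5-r, Fdx2 and dare, the gene of the mitochondrial adrenodoxin reductase, were not bound. Each of the 3 bound genes was bound in all 3 top lists.

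Among 6 regulators of detoxification genes, 3 were bound, where 23.6% of all genes were. These 3 were again bound in all 3 top lists. The stress sensor gene Keap1 had a signal of 943 (rank 139) at 919 bp from its nearest start and a weaker summit at 27 bp, the xenobiotic nuclear receptor gene Hr96 had 549 (rank 548) and cnc, the gene of the factor that Keap1 restrains, had 482 (rank 692). Keap1 had signals of 347, 293 and 289 in replicates 1, 2 and 3, Hr96 had 200, 168 and 182, and cnc had 176, 143 and 161. The regulator genes maf-S, ss and tgo had no optimal promoter peak, although maf-S had a promoter summit in the top lists of 2 replicates. In other detoxification families, 3 of 14 GstE genes (21.4%), 1 of 11 GstD genes (9.09%) and 3 of 35 Ugt genes (8.57%) were bound, against 23.6% of all genes.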

How the data were processed

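The deposited files are peak lists for the 3 biological replicates, for the replicates pooled and, after IDR (irreproducible discovery rate), for the group as optimal peaks. The lists on the dm6 build were used. Per the file headers and labels no aligner, peak caller or IDR threshold is given in the sources used here, and the depth is unknown. Each replicate's list was made from its own library and a second input, not described further, per the file records. Fragments were sonicated to 200 to 800 bp, per the labels' protocols. The signal that the authors deposited for each region comes from their peak caller and ranks regions within 1 list only. The summit is the deposited start plus the deposited offset.

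Gene models were those of Ensembl release 115 (annotation 6.54, Release 6 coordinates), with every transcript start of a gene used. All deposited dm6 regions lay within the Release 6 arms. No 2 replicates shared an identical region (0 in each pair). Counts are given beside the same over all protein-coding genes, with 95% exact intervals from scipy 1.17.1 (Python 3.11.15), and no set test was run. The assignment of summits was tested on simulated data. The members, clans and gene lists were chosen with earlier results of these data known. Named were every bound member, 7 members taken as examples, the 3 members on either side of the limit, the 5 best-ranked unbound members and all partner genes. Cyp4s3, the duplicated Cyp12d1 pair, the nested Cyp4ac2, Cyp4ac3 and Cyp4p1 to Cyp4p3, and the promoter motif genes Cyp6a8, Cyp4d14 and Cyp6g2 were named after their values were seen. Motifs were also counted from 250 bp before to 50 bp after the first start. Alternatives changed the distance, the starts, the list and the replicates.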

Additional observations from a re-analysis of the deposited data

How the results depend on the processing

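The promoter count of 6 P450 genes ranged from 5 to 7 under 9 of 10 alternatives (a limit of 500 bp or 2 kb, the first start, region overlap, the highest-signal peaks, peaks found in all replicates, each replicate left out), and the share stayed below that of all protein-coding genes in all 10. Over those 9, it was 6.02% to 8.43% for P450 genes and 14.0% to 29.3% for all genes. The whole pooled list, with background regions, gave 21 genes (25.3% against 41.5%). The limit of 500 bp removed Cyp4d20, the highest-signal peaks removed Cyp9f2 and 2 kb added Cyp9c1. The count of 0 body summits became 11 in the whole pooled list, 6 with 1 kb added on either side of the gene, 1 with region overlap (Cyp6u1) and 1 in the top list of replicate 3 (Cyp4e2, an alternative chosen after seeing the data). The mean over the replicates' lists rose from 6.33 to 21.3 with the whole lists. The 13 members with a region in all whole lists became 7 with the stronger part of each list, and 13 to 20 when a replicate was left out, the highest without replicate 3. The numbers of reads are not given, so weak binding is not detectable below the end of the lists. No paired analysis was possible because there is 1 group.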

Other observations

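Promoter sequences of the P450 genes, from 250 bp before to 50 bp after the first start, were searched for the same motifs on both strands, and the counts were not tested. GAGAG, the core of the GAGA element, was present in 42 of 83 P450 promoters (50.6%), against 29.8% of all promoters. TATCGATA, the core of the DNA replication-related element found at many housekeeping genes, was present in 2 (2.41%), against 9.37%, and the antioxidant response element TGACNNNGC in 3 (3.61%), at Cyp6a8, Cyp304a1 and Cyp4d14, against 8.64%. The core AGGTCA was present in 7 (8.43%, against 5.89%) and GGGTCA in 5 (6.02%, against 5.26%). The form of GGGTCA with the AT-rich extension known for E75 and Hr3 was present in 2 (2.41%, against 0.359%), at Cyp6g2 and Cyp6t3, neither of which was among the bound genes, and that of AGGTCA in 0 (against 0.158%). Cyp6g2 and Cyp6t3 are divergent, with starts 305 bp apart, so their windows overlap and 1 site could count for both.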
